A study of Mus musculus with 14 samples.

Results

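Transcripts of 10 enzymes that remove superoxide and peroxides were followed in mouse liver tumours by RNA sequencing: the glutathione peroxidases Gpx1, Gpx2, Gpx3, Gpx4, Gpx7 and Gpx8, catalase (Cat), and the superoxide dismutases Sod1, Sod2 and Sod3. The genes were taken by symbol and were 10 of the 16821 genes of the first deposited table and 10 of the 16095 of the second. All 10 passed the filter on low values (a mean deposited value of at least 10) in both tables, Gpx2 only through the libraries of tumours with a guide against Keap1, Cul3 or Nrf2. All were hepatocellular carcinomas driven by MYC, edited with Cas9 and a guide RNA. The first table holds 3 sgKeap1 and 3 sgCul3 tumours, with guides against the negative regulators of the transcription factor NRF2, and 4 sgGFP control tumours. The second holds sgNrf2 tumours A and B, whose guide was aimed at the ETGE motif of NRF2, and control tumours A and B, which the sample descriptions give as sgGFP tumours 2 and 4 sequenced again. The sources used here give no strain, age or number of mice, and not how MYC, Cas9 and the guides were delivered. Nothing says that the tumours of a group came from separate mice, so p-values measure the spread between these tumours only.

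Superoxide dismutases turn superoxide into hydrogen peroxide, SOD1 mainly in the cytosol, SOD2 in the mitochondrial matrix and SOD3 outside the cell. Catalase splits hydrogen peroxide in the peroxisomes, of which hepatocytes hold many, and glutathione peroxidases reduce peroxides at the expense of glutathione. KEAP1 binds the ETGE motif of NRF2 and hands the protein to the CUL3 ubiquitin ligase, which keeps the antioxidant genes under NRF2 low. GPX2, a peroxidase best known from the epithelium of the gut, is among the enzymes that NRF2 is known to induce.

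The 6 peroxidases fall into classes by their active site, shown here because it is what parts the genes of the family; whether the classes differed in response was not tested. The catalytic residue of GPX1, GPX2, GPX3 and GPX4 is selenocysteine, written by a TGA codon that would otherwise stop translation, and GPX7 and GPX8, of the endoplasmic reticulum, have cysteine in its place. The windows of 27 bases below are from the GENCODE M21 transcripts on GRCm38, with the codon of the catalytic residue in capitals. GENCODE annotates the TGA as selenocysteine in all 4 genes that have it.
Gpx1: aatgtcgcgtctctcTGAggcaccacg
Gpx2: aatgtggcgtcactcTGAggaacaact
Gpx3: aacgtagccagctacTGAggtctgaca
Gpx4: aacgtggcctcgcaaTGAggcaaaact
Gpx7: aacgtagctagcgaaTGTggcttcaca
Gpx8: aacgtggctagtgacTGCcgcttcaca

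A library had between 6333025 and 12008223 gene reads in the first table, and between 17819333 and 20848578 in the second. Levels are the authors' scaled counts, and the tables were scaled separately, so tests stayed within a table. All 10 hepatocyte markers had reads in every library. Their summed scaled count was 1198760 in sgKeap1 tumour 2, against 114586 to 339003 among the 9 libraries sequenced beside it, and its 10 most abundant genes took 24.5% of its reads, against 8.10% to 18.0% there. The main values that rest on sgKeap1 tumour 2 are therefore given with and without it. The summed erythroid markers lay between 1971 and 2176 with sgKeap1, between 422 and 11327 with sgCul3 and between 5065.5 and 15126 with sgGFP. They were 966.5 and 1989 with sgNrf2, against 17512.5 and 19412 in control tumours. Of 11 erythroid markers tested, 7 fell in sgKeap1, 5 in sgCul3 and 8 in sgNrf2. Of all genes, 7.82%, 2.2% and 4.41% were called in these comparisons, in either direction. Of 9 neutrophil markers tested, 6 fell in sgKeap1, 0 in sgCul3 and 3 in sgNrf2, and their sums were 509 to 3012 with sgKeap1 and 1029 to 11100 with sgCul3, against 2149 to 7135 with sgGFP, and 6505 and 2665 with sgNrf2, against 15533 and 12766 in control tumours. Of the markers of cholangiocytes, the epithelium of the bile ducts, 3 of 8 rose in sgKeap1, 2 of 8 in sgCul3 and 0 of 9 passed in sgNrf2. Without sgKeap1 tumour 2, 5 erythroid and 3 neutrophil markers fell and 1 cholangiocyte marker rose in sgKeap1, beside 2.89% of all genes called. The cholangiocyte sums were 906 to 2168 with sgKeap1 and 1632 to 1904 with sgCul3, above the 290 to 694 with sgGFP, and 5927 and 1161 with sgNrf2, against 1202 and 458 in control tumours. The part of these cells in the changes of Gpx2, Gpx3 and Cat was not tested. The targeted transcripts Keap1 and Cul3 were lower in every tumour with their own guide than in any sgGFP tumour, and Cul3 was so in the sgKeap1 tumours too (848, 596 and 895). Nfe2l2, which encodes NRF2, had 1486 and 1615 in sgNrf2 and 1844 and 1397 in control tumours, and a transcript level does not check an edit of the motif.

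In sgKeap1 against sgGFP tumours, Gpx2 and Cat rose, Gpx3 fell, and the other 7 members did not pass the test (limma, Benjamini-Hochberg adjusted p under 0.05 over all 13045 genes tested). Those 3 of 10 stand beside 7.82% of all genes called in this comparison, 4.45% higher and 3.37% lower. At an unadjusted p under 0.05 it would be 7 members (29.2% of all genes), edgeR called 3 (7.35%) and DESeq2 called 6 (16.4%), with Gpx1, Gpx4 and Gpx8 besides (adjusted p = 0.028, 0.018 and 0.031). Limma called Gpx2 and Cat without sgKeap1 tumour 2, 2 of 10, beside 2.89% of all genes. The groups did not overlap for 7 members: Gpx2, Gpx4, Gpx7, Gpx8, Cat and Sod1 were higher in each sgKeap1 tumour than in any sgGFP tumour, and Gpx3 was lower. Of all genes, 25.8% had groups that did not overlap, 13.1% with sgKeap1 higher and 12.6% with it lower. The median log2 fold change was 0.81 over the 10 members and -0.01 over all genes tested. Without sgKeap1 tumour 2 these medians were 0.62 and 0.00036. In bulk tumours, fewer cells of a type and less RNA per cell cannot be told apart, here or in the comparisons that follow.

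In sgCul3 against sgGFP tumours, Gpx2 rose and the other 9 did not pass. That is 1 of 10 members, where 2.2% of all genes were called, 1.35% higher and 0.851% lower. At an unadjusted p under 0.05 it would be 3 members (17.2% of all genes), edgeR called 1 (1.89%) and DESeq2 2, Gpx2 and Cat (7.1%). Gpx2 and Cat were higher in each sgCul3 tumour than in any sgGFP tumour, and groups without overlap in either direction made up 16.2% of all genes, 8.71% higher and 7.54% lower. The median log2 fold change was 0.46 over the members and 0.01 over all genes.

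In sgNrf2 against control tumours, Gpx2 and Cat rose and Gpx3 fell. These were 3 of 10 members, where 4.41% of the 13989 genes tested were called, 1.9% higher and 2.51% lower. At an unadjusted p under 0.05 it would be 4 members (30.3% of all genes), edgeR called 2 (3.32%) and DESeq2 3 (18.9%). In scaled counts the groups did not overlap for 8 members, 4 higher (Gpx2, Gpx7, Cat and Sod3) and 4 lower (Gpx3, Gpx4, Sod1 and Sod2). With 2 libraries a group, that held for 64% of all genes, 33.3% higher and 30.7% lower. As the share of reads on genes, the groups overlapped for Gpx4 and Sod1. The medians were 0.02 over the members and 0.04 over all genes. The number of genes called in this comparison ran from 3 to 3383 when 1 library was left out, and without sgNrf2 tumour A none of the 3 members passed. Since control tumours A and B are sgGFP tumours 2 and 4, this comparison and those of the first table share control tumours.

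**Figure D1:**
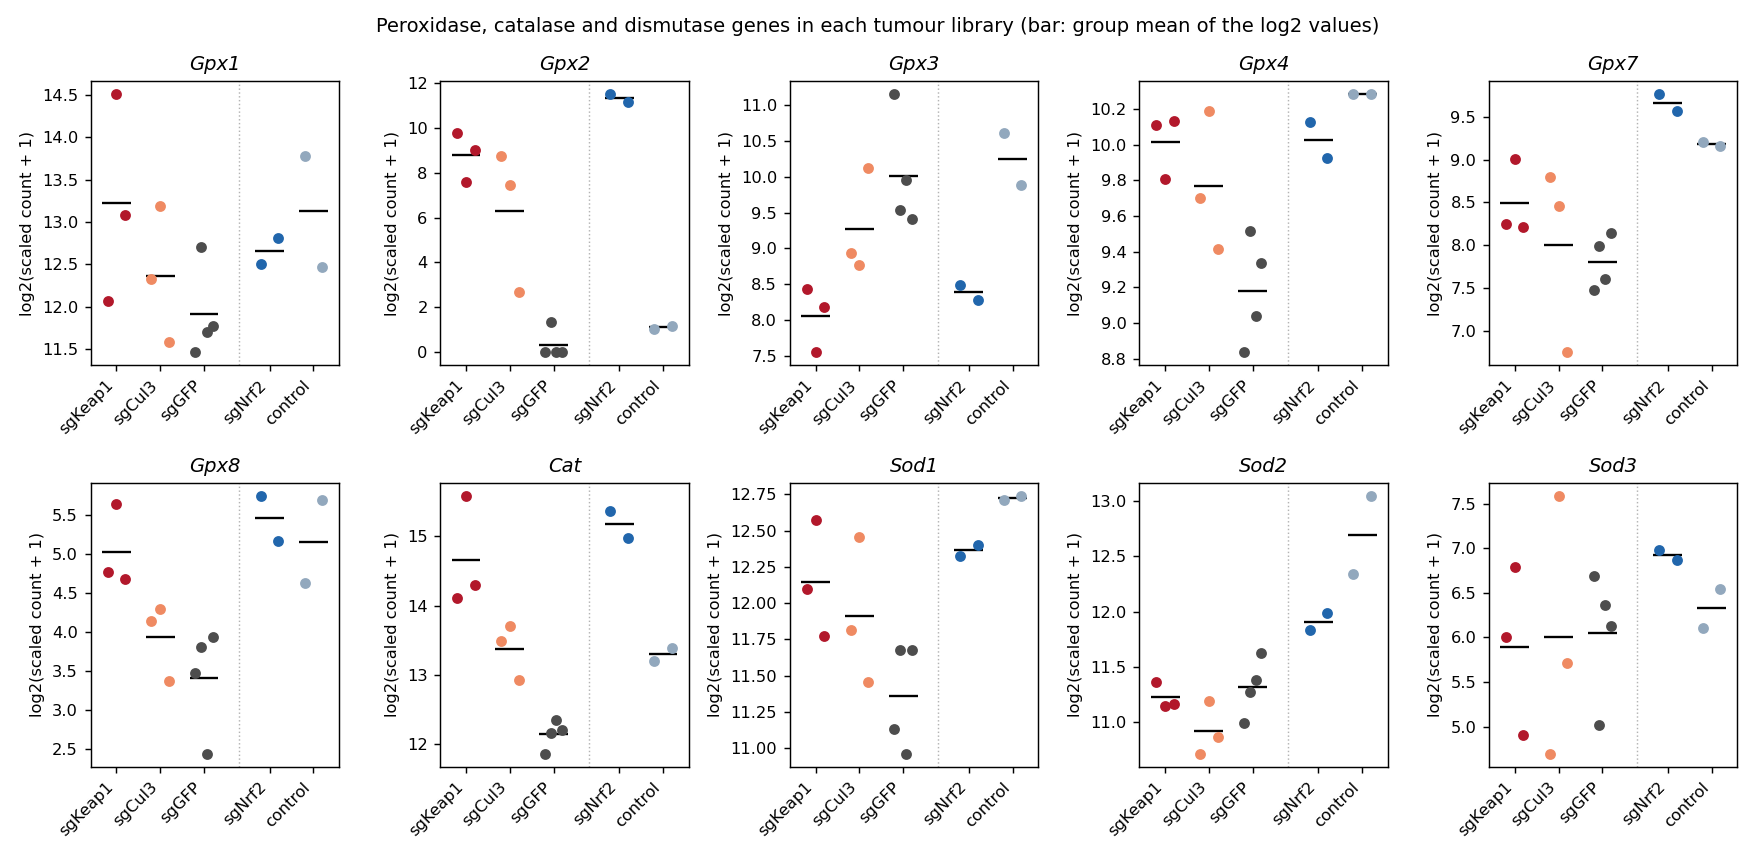
Level of each gene in every tumour library, as log2 of the scaled count plus 1, with a panel and a vertical scale for each gene. Points are libraries, bars are group means of the log2 values, and the dotted line parts the first table (sgKeap1, sgCul3, sgGFP) from the second (sgNrf2, control), which was scaled separately. Gpx2 lies below 2 on this scale in all sgGFP and control libraries, and Cat is higher and Gpx3 lower in the sgKeap1 and sgNrf2 tumours than in their controls.

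**Figure D2:**
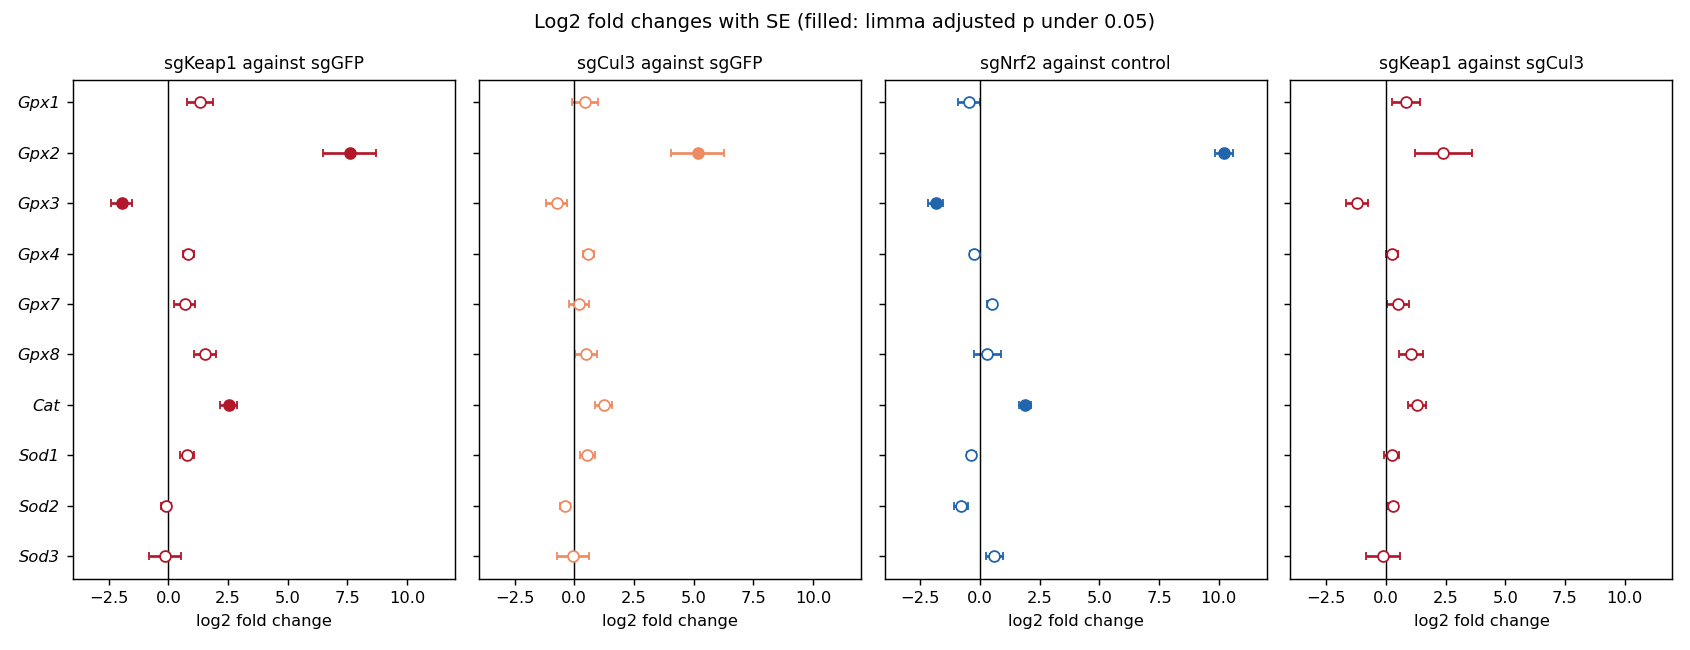
Log2 fold change of each gene in the 4 comparisons, with bars of 1 SE from limma and filled points where the adjusted p was under 0.05. Gpx2 has the largest fold change in each panel (7.59, 5.18, 10.20 and 2.41), and no point is filled for sgKeap1 against sgCul3.

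Gpx2 (ENSMUSG00000042808.8, GRCm38 chromosome 12, 76792333 to 76795554, minus strand) had scaled counts of 861, 191 and 522 in sgKeap1 tumours 1 to 3. It had 434, 176 and 5.47 in the sgCul3 and 0, 1.53, 0 and 0 in the sgGFP tumours, in the order of their numbers. These rest on 1053, 94 and 362 reads in sgKeap1, 314, 199 and 7 in sgCul3 and 0, 2, 0 and 0 in sgGFP tumours, so the gene was close to undetected without a guide against an NRF2 regulator. A count of 0 allows up to 3 reads, or scaled counts of 2.02, 2.66 and 2.68 in sgGFP tumours 1, 3 and 4 (for counting error only). The mean of sgKeap1 was 1367 times that of sgGFP tumours, with a 95% interval of 378 to 11301 that covers counting error only and is set by the 2 sgGFP reads. That of sgCul3 was 535 times (147 to 4430). The fitted log2 fold changes, which a constant of 2 in all on the scaled count holds down, were 7.59 ± 1.11 in sgKeap1 (SE, limma adjusted p = 0.0030) and 5.18 ± 1.11 in sgCul3 (adjusted p = 0.042).

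The sgKeap1 call of Gpx2 held in every alternative, with adjusted p of 8.1e-08 to 0.020. Without sgKeap1 tumour 2 its log2 fold change was 8.19 (adjusted p = 0.0078) and the ratio of means 1803. The sgCul3 call held in 7 of 17 alternatives and was lost in 10. It was lost with a constant of 5 (adjusted p = 0.069), at a mean of at least 50 (0.052), with only the 2 groups (0.082), with the tumour number as a block and no sgGFP tumour 4 (0.063), and without any 1 of the sgGFP tumours (0.066 to 0.10) or sgCul3 tumour 2 (0.13). The highest p was 0.17 without sgCul3 tumour 1, when the ratio was 237, and the lowest 1.2e-05 with DESeq2. Without sgCul3 tumour 3, the library with 7 reads, the ratio was 795 and the log2 fold change 6.92 (adjusted p = 0.00055).

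The sgCul3 tumours stood in the same order for Gpx2 and for the loss of the targeted transcript. Cul3 had scaled counts of 163, 426 and 676 in sgCul3 tumours 1 to 3, against 935 to 1372 in sgGFP tumours. In sgKeap1 tumour 2 Cul3 was at 596, below sgCul3 tumour 3. In its group, sgCul3 tumour 3, with most Cul3 left, had the lowest Gpx1, Gpx2, Gpx4, Gpx7, Gpx8, Cat and Sod1 and the highest Gpx3. Tumour 2, not tumour 1 with the least Cul3, had the highest Gpx1 (9344), Gpx4 (1167), Gpx8 (18.6), Cat (13310) and Sod1 (5615). Tumour 2 also had the lowest Gpx3 (434), and tumour 1 had the lowest Sod2 and Sod3. Besides Gpx2, only Gpx7 followed the full order. With 3 libraries this is a description.

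In the second table Gpx2 had scaled counts of 2913 and 2238 in sgNrf2 tumours A and B, from 3596 and 2560 reads, and 1.08 and 1.27 in control tumours A and B, from 1 read each. The mean of sgNrf2 was 2198 times that of control tumours (counting interval 608 to 18151). The log2 fold change of 10.20 ± 0.38 (limma adjusted p = 0.012) ranked 1 from the top of the 13989 genes tested. It did not pass without sgNrf2 tumour A (adjusted p = 0.066). The gene overlaps Fntb on the other strand, and the sources used here do not say whether counting went by strand. Fntb had 882 and 848 in sgNrf2 and 460 and 233 in control tumours, and 187 to 331 in the sgGFP tumours where Gpx2 was at 0 to 1.53.

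Gpx1 (ENSMUSG00000063856.7, chromosome 9, 108338903 to 108340343, plus strand), the peroxidase of cytosol and mitochondria in most cells, had scaled counts of 4294, 23380 and 8644 in sgKeap1 tumours 1 to 3. It had 5116, 9344 and 3064 in the sgCul3 and 2820, 6658, 3327 and 3497 in the sgGFP tumours, in the order of their numbers. The groups overlapped, and sgKeap1 tumour 2 was the highest library of the table. The log2 fold changes of 1.31 ± 0.55 in sgKeap1 (limma adjusted p = 0.14) and 0.46 ± 0.55 in sgCul3 (adjusted p = 0.72) did not pass, and without sgKeap1 tumour 2 the first was 0.66 (adjusted p = 0.47). The fold change in sgKeap1 did pass in 3 of 17 alternatives, at 1.89 without sgKeap1 tumour 1 (adjusted p = 0.049), at 1.58 with DESeq2 (0.028) and with the replicate block (0.046). In sgNrf2 tumours A and B Gpx1 had 5827 and 7172, against 14061 and 5678 in control tumours A and B, a log2 fold change of -0.47 ± 0.46 (adjusted p = 0.52) that was 0.19 without control tumour A. Control A and sgGFP 2, the same tumour, had the most Gpx1 of their control groups. Their summed macrophage markers were 15929 and 7580, against 2617 in control tumour B and 8369, 1938 and 1404 in sgGFP tumours 1, 3 and 4. The part of other cells in the level of Gpx1 was not tested.

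Gpx3 (ENSMUSG00000018339.11, chromosome 11, 54902453 to 54910377, plus strand), the peroxidase secreted into plasma, went the other way. It had scaled counts of 345, 186 and 289 in sgKeap1 tumours 1 to 3, against 2287, 743, 988 and 682 in sgGFP tumours 1 to 4. Every sgKeap1 tumour was below every sgGFP tumour, and the log2 fold change was -1.96 ± 0.45 (limma adjusted p = 0.026). In sgNrf2 tumours A and B it had 359 and 311, against 1562 and 945 in control tumours A and B, again with no overlap, and fell by 1.86 ± 0.31 on the log2 scale (adjusted p = 0.047). The sgCul3 tumours had 489, 434 and 1111, within the sgGFP range for tumour 3 and below it for tumours 1 and 2, with a log2 fold change of -0.74 ± 0.45 (adjusted p = 0.42).

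The sgKeap1 call of Gpx3 was lost without sgGFP tumour 3 (adjusted p = 0.064) and without sgKeap1 tumour 2 or 3 (0.11 and 0.084, with log2 fold changes of -1.71 and -2.02), in a range of 0.00037 to 0.11. The sgNrf2 call was lost at equal totals (0.062), with edgeR (0.052) and without sgNrf2 tumour A or B (0.24 and 0.20), in a range of 1.5e-05 to 0.24.

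Gpx4 (ENSMUSG00000075706.10, chromosome 10, 80047166 to 80056439, plus strand) reduces lipid peroxides in membranes and so guards against ferroptosis. It had scaled counts of 1102, 894 and 1121 in sgKeap1 tumours 1 to 3, 832, 1167 and 683 in the sgCul3 and 456, 730, 525 and 644 in the sgGFP tumours, in the order of their numbers. Each sgKeap1 tumour was above each sgGFP tumour, and the log2 fold change of 0.83 ± 0.23 had a limma adjusted p of 0.051, in a range of 0.018 to 0.15. Without sgKeap1 tumour 2 it was 0.94 (adjusted p = 0.092). In sgCul3 the log2 fold change was 0.59 ± 0.23 (adjusted p = 0.23). In sgNrf2 tumours A and B Gpx4 had 1119 and 972, against 1243 and 1245 in control tumours A and B, a log2 fold change of -0.25 ± 0.19 (adjusted p = 0.40) that turned to 0.05 at equal totals. A pseudogene, Gpx4-ps2, could share its reads, so small differences in Gpx4 are uncertain, as they are for Gpx2, which has the pseudogene Gpx2-ps1.

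Gpx7 (ENSMUSG00000028597.11, chromosome 4, 108400390 to 108406961, minus strand) and Gpx8 (ENSMUSG00000021760.5, chromosome 13, 113042753 to 113046410, minus strand) act with the protein-folding enzymes of the endoplasmic reticulum. Gpx7 had scaled counts of 304, 515 and 296 in sgKeap1 and 442, 352 and 107 in sgCul3 tumours, against 178 to 283 in sgGFP tumours. In sgNrf2 tumours it had 868 and 755, against 591 and 571 in control tumours. Gpx8 was low throughout, at 26.2, 48.6 and 24.5 in sgKeap1, 16.6, 18.6 and 9.38 in sgCul3 and 4.43 to 14.3 in sgGFP tumours, and at 52.7 and 35.0 in sgNrf2 and 23.7 and 50.6 in control tumours. Both were higher in every sgKeap1 than in any sgGFP tumour. The log2 fold change of Gpx8 was 1.51 ± 0.46 (limma adjusted p = 0.067) and that of Gpx7 0.68 ± 0.43 (adjusted p = 0.31). Without sgKeap1 tumour 2, highest in both, they were 1.22 and 0.42. Gpx8 and Cdc20b overlap on opposite strands. The summed markers of stellate cells and fibroblasts, whose secretory reticulum is large, were 2774, 6024 and 2781 in sgKeap1 tumours 1 to 3 and 1447 to 2897 in sgGFP tumours, highest in sgKeap1 tumour 2 as Gpx7 and Gpx8 were. In sgCul3 tumours 1 to 3 they were 963, 3186 and 1057, lowest in tumour 1, where Gpx7 was the highest of its group. Their part in these values was not tested.

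Shares were taken over the 6 peroxidases followed here and leave out Gpx6, which is not a member. In control tumour B, Gpx6 had 297 scaled counts per kb of merged exons, against 521 for Gpx3. Per kb of merged exons, Gpx1 made up most of the transcripts of the 6 in every library. Its share averaged 81.8 ± 12.5% in sgKeap1, 74.5 ± 8.94% in sgCul3 and 69.1 ± 11.4% in sgGFP tumours, and 66.4 ± 6.22% in sgNrf2 and 76.0 ± 9.27% in control tumours (SD, n = 3, 3, 4, 2 and 2). The share of Gpx2 was 2.91 ± 2.97% in sgKeap1, 1.19 ± 1.44% in sgCul3 and 0.0021 ± 0.0042% in sgGFP tumours. Without sgKeap1 tumour 2 the sgKeap1 shares were 75.9 ± 10.1% for Gpx1, 4.20 ± 2.77% for Gpx2 and 3.30 ± 1.54% for Gpx3 (n = 2). In sgNrf2 tumours Gpx2 reached 11.9 ± 2.82%, against 0.0049 ± 0.0029% in control tumours. Gpx3 held 2.39 ± 1.90% in sgKeap1, 9.23 ± 8.54% in sgCul3 and 17.4 ± 12.2% in sgGFP tumours, and 2.74 ± 0.42% in sgNrf2 and 8.24 ± 1.34% in control tumours. Per kb of merged exons, Gpx2 stood above Gpx3 in both sgNrf2 tumours and in sgKeap1 tumours 1 and 3, in the last by 2.24% against 2.20%, and below it in all other libraries. The shares depend on the length used: with the longest protein-coding transcript, Gpx2 came to 23.2 ± 4.84% in sgNrf2 and 6.07 ± 6.02% in sgKeap1 tumours. By that length Gpx2 stood above Gpx3 also in sgKeap1 tumour 2 (0.762% against 0.499%) and sgCul3 tumour 1 (6.09% against 4.59%). With the longest transcript of any type it stood below Gpx3 in sgKeap1 tumour 3 (1.69% against 1.85%).

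**Figure D3:**
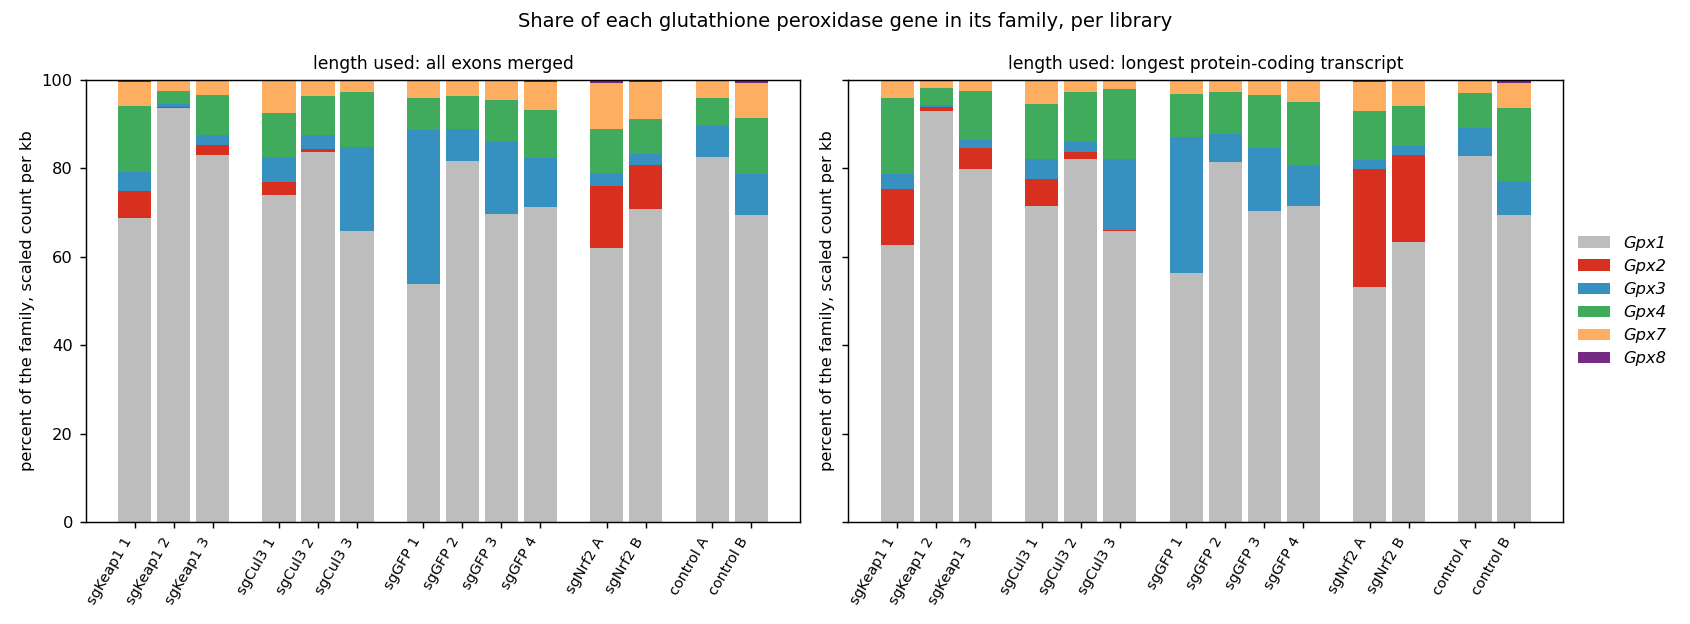
Share of each glutathione peroxidase gene in the family's scaled counts per kb, in percent, for each library, with the length of all merged exons on the left and of the longest protein-coding transcript on the right. Gpx1 (grey) is the largest part of each bar, Gpx2 (red) is seen in sgKeap1, sgCul3 and sgNrf2 bars only, and Gpx3 (blue) reaches 34.7% in sgGFP tumour 1 on the left.

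Cat (ENSMUSG00000027187.10, chromosome 2, 103453849 to 103485160, minus strand) had scaled counts of 17664, 49304 and 20151.5 in sgKeap1 tumours 1 to 3. It had 11528.5, 13310 and 7757 in the sgCul3 and 3701, 4571, 5192 and 4718 in the sgGFP tumours, in the order of their numbers. No group overlapped another: the levels ran sgKeap1 over sgCul3 over sgGFP. The means were 29040 ± 17593 in sgKeap1 and 4545 ± 622 in sgGFP tumours (SD, n = 3 and 4), which gave a log2 fold change of 2.53 ± 0.36 (adjusted p = 0.0027), which held in every alternative with adjusted p of 5.2e-11 to 0.010. Without sgKeap1 tumour 2, whose Cat was highest, the mean was 18908 ± 1759 (n = 2) and the log2 fold change 2.06 (adjusted p = 0.0045). In sgCul3 it was 1.23 ± 0.36 and did not pass (adjusted p = 0.11), though it did with quantile normalization (0.040) and DESeq2 (0.015), in a range of 0.015 to 0.34. In the order of levels, sgCul3 was therefore apart from neither neighbour by the test: against it, sgKeap1 came to a log2 fold change of 1.29 ± 0.39 (adjusted p = 0.40).

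In sgNrf2 tumours A and B Cat had 42415 and 32231, against 9401 and 10742.5 in control tumours A and B. The log2 fold change was 1.88 ± 0.26 (limma adjusted p = 0.041), and it did not pass without sgNrf2 tumour A or B (adjusted p = 0.30 and 0.15) or control tumour B (0.053), in a range of 8.5e-10 to 0.30. Red cells are rich in catalase. The sgKeap1 and sgNrf2 tumours, with more Cat than their controls, had lower sums of erythroid markers (given above). In sgKeap1 tumour 2, with the most Cat, the albumin gene had a scaled count of 1046670, against 73525 and 81459 in sgKeap1 tumours 1 and 3. The part of red cells or hepatocytes in the level of Cat was not tested.

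Sod1 (ENSMUSG00000022982.10, chromosome 16, 90220754 to 90226329, plus strand) had scaled counts of 4391, 6091 and 3495 in sgKeap1, 3609, 5615 and 2814 in sgCul3 and 2243, 3273, 1994 and 3278 in sgGFP tumours, in the order of their numbers. The sgKeap1 tumours lay above the sgGFP tumours without overlap, with a log2 fold change of 0.79 ± 0.30 (adjusted p = 0.12) that was 0.57 without sgKeap1 tumour 2. In sgNrf2 tumours A and B Sod1 had 5135 and 5418, below the 6708 and 6844 of control tumours A and B. The log2 fold change was -0.36 ± 0.18 (limma adjusted p = 0.23), in a range of -0.40 to -0.05 over the alternatives. The adjusted p was 0.24 with edgeR and 0.25 with DESeq2, which scale the recovered reads themselves. That the groups did not overlap depends on the scaling. As the share of reads on genes (RPM), Sod1 had 304.0 and 322.5 in sgNrf2 and 348.3 and 303.5 in control tumours, which overlap. Scaf4 overlaps it on the other strand.

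Sod2 (ENSMUSG00000006818.5, chromosome 17, 13006846 to 13040063, plus strand) had 2633, 2256 and 2296 in sgKeap1, 1675, 2333 and 1857 in sgCul3 and 2036, 2477, 2658 and 3157 in sgGFP tumours. Its log2 fold change was -0.09 ± 0.20 in sgKeap1 (limma adjusted p = 0.78) and -0.40 ± 0.20 in sgCul3 (adjusted p = 0.34). In sgNrf2 tumours A and B it had 3637 and 4064, against 5181 and 8478 in control tumours A and B, a log2 fold change of -0.79 ± 0.29 (adjusted p = 0.15). A p that misses the threshold does not show that a level was the same.

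Sod3 (ENSMUSG00000072941.5, chromosome 5, 52363791 to 52371418, plus strand) had 62.9, 109 and 28.9 in sgKeap1, 24.9, 191 and 51.6 in sgCul3 and 31.5 to 102 in sgGFP tumours. It had 125 and 115 in sgNrf2 and 67.9 and 92.4 in control tumours. The first 3 groups overlapped throughout, and the direction of its log2 fold change in sgCul3 (-0.04 ± 0.66) turned with edgeR and DESeq2. The log2 fold change of Sod3 in sgNrf2 was 0.59 ± 0.36 (limma adjusted p = 0.32).

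Per kb of merged exons, Sod1 held 81.4 ± 3.77% of the dismutase transcripts in sgKeap1, 81.7 ± 3.22% in sgCul3 and 70.5 ± 5.23% in sgGFP tumours, and 76.1 ± 0.55% in sgNrf2 and 71.2 ± 6.72% in control tumours. The share of Sod2 was 17.4 ± 4.20% in sgKeap1, 16.5 ± 3.48% in sgCul3 and 27.3 ± 4.56% in sgGFP tumours. With the longest protein-coding transcript, Sod1 came to 94.2 ± 1.42% in sgKeap1 and 89.9 ± 2.28% in sgGFP tumours. With the longest transcript of any type it came to 72.6 ± 5.35% and 59.2 ± 5.89%. With sgKeap1 tumour 2 left out, the sgKeap1 shares per kb of merged exons were 79.3 ± 0.72% for Sod1 and 19.8 ± 1.09% for Sod2 (n = 2).

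Between sgKeap1 and sgCul3 tumours, none of the 10 members passed limma, where 0.0613% of all genes were called, 0.0307% higher and 0.0307% lower. At an unadjusted p under 0.05 it would be 2 members (10.1% of all genes), edgeR called 0 (0.046%) and DESeq2 called 1, Cat (adjusted p = 0.037, 0.797%). Cat and Gpx8 were higher and Gpx3 lower in every sgKeap1 than in any sgCul3 tumour, 3 of 10, and 15.8% of all genes had groups without overlap, 7.52% higher and 8.24% lower. The log2 fold changes were 2.41 ± 1.18 for Gpx2, 1.04 ± 0.49 for Gpx8 and -1.22 ± 0.48 for Gpx3 (adjusted p = 0.51, 0.50 and 0.46). That of Gpx2 was 0.67 without sgCul3 tumour 3 and 3.60 without sgCul3 tumour 1.

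The stretches before the gene starts of Gpx2 and Cat, the members that rose, are shown with that of Sod1, since of these stretches Sod1 alone held the core of the antioxidant response element, the site to which NRF2 binds with small MAF proteins. The letters searched were TGACNNNGC on both strands, over 250 bases before and 50 after each start in RefSeq (GRCm38.p6). The motif stood in 4071 of 32851 promoters (12.4%) and, of the 9 members with a promoter in that table, in Sod1, 47 bases before its start, read on the strand opposite to the gene. The stricter TGACTCAGC stood in 149 promoters (0.454%) and in no member's. A match is a description only, and elements farther away were not searched. The 250 bases before the start follow, on the strand of the gene, with the motif in capitals.
Gpx2 (chr12:76795555-76795804, minus strand): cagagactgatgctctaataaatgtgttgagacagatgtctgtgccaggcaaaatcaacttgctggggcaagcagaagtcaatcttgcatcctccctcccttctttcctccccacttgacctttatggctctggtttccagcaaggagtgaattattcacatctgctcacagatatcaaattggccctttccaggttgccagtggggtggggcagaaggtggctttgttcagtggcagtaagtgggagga
Cat (chr2:103485154-103485403, minus strand): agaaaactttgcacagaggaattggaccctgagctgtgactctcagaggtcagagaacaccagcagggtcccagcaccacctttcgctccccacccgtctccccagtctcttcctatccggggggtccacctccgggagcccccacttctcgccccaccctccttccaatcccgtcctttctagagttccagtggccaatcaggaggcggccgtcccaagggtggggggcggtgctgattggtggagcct
Sod1 (chr16:90220512-90220761, plus strand): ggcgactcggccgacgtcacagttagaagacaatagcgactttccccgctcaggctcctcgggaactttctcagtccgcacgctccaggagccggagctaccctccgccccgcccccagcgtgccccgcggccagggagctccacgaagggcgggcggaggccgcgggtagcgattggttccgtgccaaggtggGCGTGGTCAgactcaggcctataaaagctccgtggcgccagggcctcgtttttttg

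Genes that serve these enzymes were described by lists. Their counts stand beside 7.82% of all genes called by limma in sgKeap1, 2.2% in sgCul3 and 4.41% in sgNrf2. Of 10 genes of glutathione supply and reduction, 6 rose and 1 (Glrx2, adjusted p = 0.14 without sgKeap1 tumour 2) fell in sgKeap1, and 4 rose in sgCul3 and in sgNrf2. The median log2 fold changes were 1.84, 1.24 and 1.20, against -0.01, 0.01 and 0.04 over all genes. Gsr, which regenerates the glutathione that peroxidases oxidise, had scaled counts of 9643, 13833 and 13693 in sgKeap1, 11136, 7140 and 5734 in sgCul3 and 1882 to 2318 in sgGFP tumours. In sgNrf2 tumours Gsr had 16880 and 12469, against 3486 and 4769 in control tumours. Its groups did not overlap in any of these comparisons, and its log2 fold changes were 2.59, 1.93 and 1.83 (limma adjusted p = 0.00029, 0.0045 and 0.043).

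Of 12 genes of peroxiredoxins and the thioredoxin system, which also reduce peroxides, 4 rose in sgKeap1 (Srxn1, Txnrd1, Prdx1 and Txn1), 3 in sgCul3 (Srxn1, Txnrd1 and Txn1), and 2 rose and 2 fell in sgNrf2. Prdx1 had 13892, 17864 and 16778 in sgKeap1 and 5320 to 7415 in sgGFP tumours, a log2 fold change of 1.42 ± 0.24 (adjusted p = 0.0068). Prdx2, the peroxiredoxin abundant in red cells, had 3469 and 3281 in sgNrf2 and 8034 and 7185 in control tumours, a log2 fold change of -1.17 ± 0.18 (adjusted p = 0.045). Erythroid markers fell in the same tumours, and their part in the fall of Prdx2 was not tested. Prdx5 had 1716 and 1552 in sgNrf2 and 3313 and 3406 in control tumours, a log2 fold change of -1.04 ± 0.17 (adjusted p = 0.047).

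Selenocysteine is made and inserted by a machinery of its own. Of 11 such genes 1 rose in sgKeap1, 0 passed in sgCul3 and 1 fell in sgNrf2, with medians of 0.16, 0.18 and 0.11. These shares are near those of all genes (7.82%, 2.2% and 4.41%). The gene that rose, Lrp8, encodes a receptor that takes up selenoprotein P, the carrier of selenium. Lrp8 had 288, 134 and 247 in sgKeap1, 282, 120 and 35.2 in sgCul3 and 10.6 to 36.8 in sgGFP tumours. Its log2 fold change was 3.22 ± 0.65 in sgKeap1 (limma adjusted p = 0.016) and 2.24 ± 0.65 in sgCul3 (adjusted p = 0.11). In sgNrf2 tumours Lrp8 had 436 and 241, against 58.2 and 24.0 in control tumours (adjusted p = 0.055). The gene that fell, Pstk, a kinase that readies the serine bound to the selenocysteine tRNA, had 587 and 542 in sgNrf2 and 1326 and 1658 in control tumours (log2 fold change -1.39 ± 0.21, adjusted p = 0.044). Of 12 other selenoprotein genes none passed limma in any comparison. At an unadjusted p under 0.05 it would be 5 in sgKeap1, 0 in sgCul3 and 5 in sgNrf2 (29.2%, 17.2% and 30.3% of all genes). For these comparisons edgeR called 1, 0 and 0 (7.35%, 1.89% and 3.32%), and DESeq2 3, 0 and 4 (16.4%, 7.1% and 18.9%). Dio1, which activates thyroid hormone, came closest, averaging 669 ± 271 in sgNrf2 and 25.9 ± 26.0 in control tumours (log2 fold change 5.03 ± 0.87, adjusted p = 0.050).

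None of 10 peroxisomal oxidases, which make the hydrogen peroxide that catalase removes, passed limma or edgeR in any comparison, with medians of 0.26 in sgKeap1, -0.63 in sgCul3 and 0.24 in sgNrf2. At an unadjusted p under 0.05 it would be 2, 2 and 3 of them, where all genes had 29.2%, 17.2% and 30.3%. DESeq2 called 0, 2 and 2, beside 16.4%, 7.1% and 18.9% of all genes. Of 10 genes of peroxisome protein import, Pex13, a docking protein of the peroxisomal membrane, rose in sgKeap1, with 721, 1912 and 1287 against 379 to 619 in sgGFP tumours (log2 fold change 1.23 ± 0.32, limma adjusted p = 0.040, and 0.90 with adjusted p = 0.15 without sgKeap1 tumour 2). Of 8 superoxide producing oxidases tested, Xdh, xanthine oxidoreductase, rose in sgNrf2, with 1197 and 936 against 362 and 325 in control tumours (log2 fold change 1.62 ± 0.23, adjusted p = 0.043). Of 10 genes that supply copper, zinc and manganese, Atp7a, a copper pump, fell in sgKeap1, with 10.6, 0 and 8.66 against 46.5 to 182 in sgGFP tumours (log2 fold change -3.70 ± 0.80, adjusted p = 0.020, and -2.85 with adjusted p = 0.075 without sgKeap1 tumour 2). Ccs, the copper chaperone of SOD1, averaged 2248 ± 606 in sgKeap1 and 1592 ± 246 in sgGFP tumours and did not pass (adjusted p = 0.22). Of 9 genes of lipid peroxidation and ferroptosis tested, beside Gpx4, the ferritin chains Ftl1 and Fth1 rose in sgKeap1 and Ftl1 in sgCul3 and sgNrf2. Fth1 did not pass without sgKeap1 tumour 2 (log2 fold change 1.15, adjusted p = 0.12).

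Of 10 reference targets of NRF2, from textbook knowledge, 9 rose in sgKeap1, 8 in sgCul3 and 8 in sgNrf2, with medians of 2.59, 2.07 and 2.91. Some of them stand on the lists above too.

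**Figure D4:**
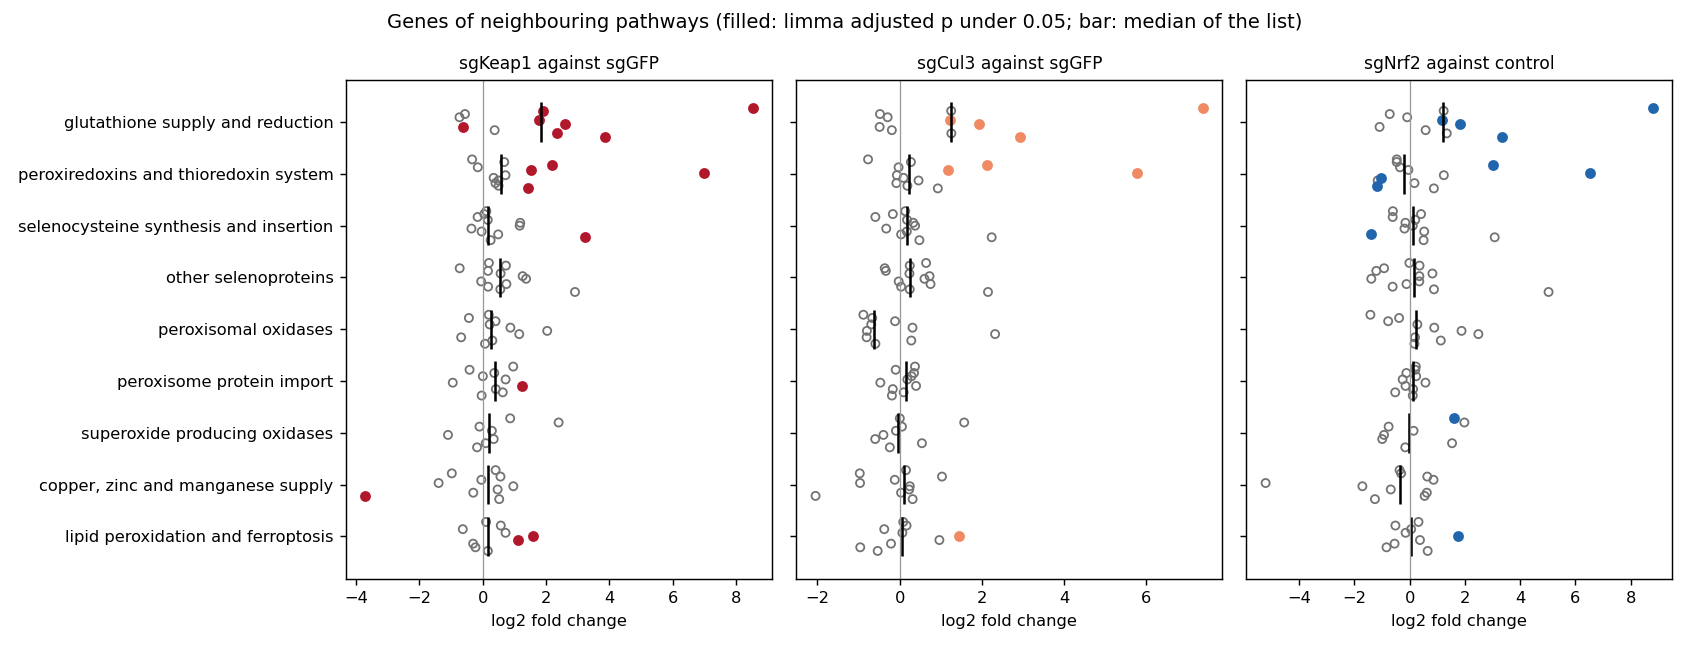
Log2 fold changes of single genes on 9 lists of neighbouring pathways, in 3 comparisons, each panel with its own horizontal scale. Filled points passed limma (adjusted p under 0.05), open points did not, and bars mark list medians. The filled points gather in glutathione supply and in the peroxiredoxin and thioredoxin list, and the peroxisomal oxidases and the other selenoproteins have none.

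Over the 10 libraries of the first table, the genes whose log2 levels ran most like each member were ranked by Pearson's r, genes with a mean under 100 left out. Libraries share depth and group, so r is a description. Gpx2 ran most like Blvrb (0.984), Ptgr1 (0.966) and Lrp8 (0.962). Cat ran most like Pgrmc1 (0.995), Cd81 (0.981) and Chn2 (0.978). Gpx3 was followed by Map3k3 (0.977), Ing5 (0.973) and Extl2 (0.971), and Gpx1 by Sar1b (0.979), Cd47 (0.974) and Parp12 (0.974). Pgrmc1 shows what such an r holds: it had 8474, 23358 and 10973 in sgKeap1, 6921, 7522 and 4353 in sgCul3 and 2508 to 3349 in sgGFP tumours, with sgKeap1 tumour 2 highest as for Cat. The best r was 0.949 for Gpx4 (Ppp1r11), 0.961 for Gpx7 (Tedc2), 0.954 for Sod1 (Gtf3c6) and 0.932 for Sod2 (Nr0b2). Gpx8 and Sod3 were too low to be ranked.

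The control tumours sequenced again show how far the members vary when a tumour is sequenced again. As the share of reads on genes (RPM), control A and sgGFP 2 had 730 and 723 for Gpx1, 81.1 and 80.7 for Gpx3, 488 and 496 for Cat and 269.0 and 268.9 for Sod2. Over the 9 members besides Gpx2, which had 1 and 2 reads, the size of the log2 ratio had a median of 0.03 and reached 0.29 for Gpx4. Control B and sgGFP 4 lay farther apart, with a median of 0.32 and a largest value of 0.71 for Gpx8. For Gpx3 they had 41.9 and 65.2, and for Cat 476 and 451. These ratios compare libraries of the same tumour, and so do not hold the variation between tumours. What made control B and sgGFP 4 differ more, whether sequencing, library, RNA or piece of tumour, was not tested.

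**Figure D5:**
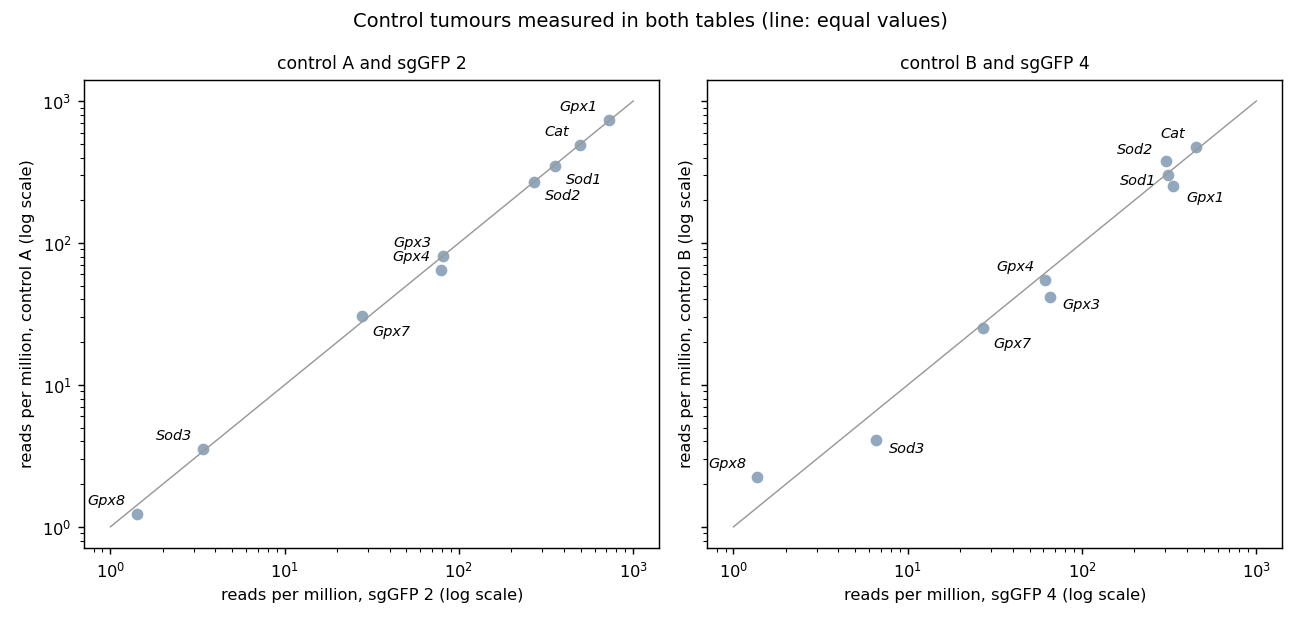
RPM over reads on genes for 9 members in the 2 control tumours that were sequenced for both tables, control A against sgGFP 2 and control B against sgGFP 4, on log axes. The line marks equal values, and the points of control A lie on or near it. In control B those of Gpx3, Gpx8 and Sod3 stand off it, and those of Gpx1 and Sod2 do so less.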

How the data were processed

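Total RNA of the tumours was extracted with a Qiagen kit and made into libraries with an Illumina TruSeq RNA kit, per the labels' protocols. The authors deposited a signal per gene and library, gene counts scaled by DESeq, with HTSeq, Picard and the build mm10 also named in the submitters' processing notes. The sources used here name no aligner, strand setting or version. Every value of the first table has 1 added, which was taken off again for the levels in the text. Reads were recovered from the steps of the values (100% whole within 0.1 reads). The second table has 4 rows that name no gene, left out of all tests, of which reads that aligned to several places were 45.0% to 58.0% of listed reads.

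Each table was fitted with limma 3.58.1 in R 4.3.3, with a mean-variance trend, on log2 of the deposited value plus 1, over genes with a mean of at least 10, all groups of a table in 1 fit, two-sided, with Benjamini-Hochberg adjustment over all genes. Alternatives were a constant of 5, the added 1 removed, a minimum mean of 50 or no minimum, equal totals, quantile normalization, a replicate block, only the 2 groups compared, leaving out each library, and edgeR 4.0.16 and DESeq2 1.42.0 on the recovered reads. Ranges of p in the text are over these. Log2 fold changes are of scaled counts plus 2 in the first table and plus 1 in the second, and understate the change of low genes. Intervals of ratios, at 95%, are exact for the ratio of pooled reads. They were rescaled to the ratio of mean scaled counts, for which they are approximate, and cover counting error only. The fits were tested on simulated data.

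The members were taken by symbol, and the members, pathway lists, markers and tests were chosen with earlier results of these data known. The genes named beside the members were those of the lists that passed the test, the genes most like each member, and a few that bear on a result. The length of the longest protein-coding transcript, and means, shares and list counts without sgKeap1 tumour 2, were added as alternatives after the data were seen.

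The main fits did not pair tumours by number, and the replicate block, which does, was an alternative only. Same-numbered sgCul3 and sgGFP tumours deviated together (correlations 0.164, 0.175 and 0.314), a link found in the data and not stated in the labels. Gene IDs matched GENCODE M21 for 16769 of 16821 and 16048 of 16095 genes.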

Additional observations from a re-analysis of the deposited data

Results flagged for a closer look

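Gpx2 in sgGFP tumours was flagged because tumour 2 stood apart from the other 3: the gap to its neighbour was the whole range (ratio 1, above Dixon's 0.829 for 4 samples, which chance passes in about 1 in 20 groups). The gap is 2 reads against 0.

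For Gpx1, Gpx4 and Sod1 every sgKeap1 tumour lay above the mean of the sgGFP tumours, and both sgNrf2 tumours lay below that of the control tumours. Every sgCul3 tumour lay above the sgGFP mean for Gpx4 and Sod1. That did not hold for Gpx1, at 3064 in sgCul3 tumour 3 against an sgGFP mean of 4075. The log2 fold change in sgNrf2 minus that in sgKeap1 was -1.78 for Gpx1, -1.09 for Gpx4 and -1.15 for Sod1, and minus that in sgCul3 it was -0.84 for Gpx4 and -0.91 for Sod1. These differences were not tested: the tables were scaled separately, and control tumours A and B are sgGFP tumours 2 and 4. None of the single fold changes passed limma, that of Gpx1 in sgNrf2 turned to 0.19 without control tumour A, and that of Gpx4 turned to 0.05 at equal totals. For Sod1 in sgNrf2 it stayed negative over the alternatives but shrank to as little as -0.05.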

How the results depend on the processing

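Of 616 values of the 10 members under an alternative, 563 kept their direction and their side of the threshold, 12 came to pass it, 21 no longer passed and 20 turned in direction. Counts of genes called moved by over 1.5 times as follows, and the cause was not tested. In sgCul3 against sgGFP, 287 genes became 162 at a mean of at least 50, 156 with only the 2 groups, 926 with DESeq2 and 68 to 327 with 1 library left out. In sgKeap1 against sgGFP, 1020 became 1778 with the replicate block, 2143 with DESeq2 and 319 to 1516 with 1 library left out. In sgKeap1 against sgCul3, 8 became 0 with only the 2 groups, 104 with DESeq2 and 0 to 9 with 1 library left out. In sgNrf2 against control, 617 became 972 with quantile normalization, 1236 at equal totals (874 higher and 362 lower, against 266 and 351), 2639 with DESeq2 and 3 to 3383 with 1 library left out. Equal totals moved the median of all genes by 0.34 in sgNrf2, -0.20 in sgKeap1 and -0.24 between sgKeap1 and sgCul3.

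Directions turned for Sod3 in sgCul3 (0.0591 with quantile normalization, 0.34 with edgeR and DESeq2, -0.83 to 0.60 with a library left out) and in sgKeap1 (-0.59 to 0.34), for Gpx7 in sgCul3 (-0.20 to 0.81) and for Gpx7 and Sod3 between sgKeap1 and sgCul3 (-0.13 to 0.88 and -0.75 to 0.68), with a library left out. They also turned for Sod2 in sgKeap1 (0.0082 with the block and without sgGFP tumour 4), Sod1 between sgKeap1 and sgCul3 (-0.00098 at equal totals), and in sgNrf2 for Gpx1 and Gpx8 with a library left out (-1.12 to 0.19 and -0.23 to 0.83) and Gpx4 at equal totals (0.0521).

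The replicate block, which also drops sgGFP tumour 4, gave Gpx2 in sgCul3 an adjusted p of 0.063. Leaving out that tumour with no block gave 0.088, so the loss of the call is not particular to the block. Same-numbered tumours had correlations of 0.199, 0.0425 and -0.0941 for sgKeap1 with sgGFP. For sgKeap1 with sgCul3 they were 0.239, 0.518 and 0.098, and in neither comparison were all best with their own number. Whether the numbers mark pairs is not known for any comparison. In sgKeap1 against sgGFP the block brought Gpx1, Gpx4, Gpx8 and Sod1 to limma adjusted p of 0.046, 0.048, 0.035 and 0.023. Depth limits Gpx2 in sgGFP, Gpx8 and Sod3.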

Other observations

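Gpx6, a peroxidase of the olfactory epithelium that is not a member, was looked at after its values were seen. It had scaled counts of 14.7, 4.05 and 0 in sgKeap1, 0, 0 and 68.0 in sgCul3 and 3.37, 5.37, 231 and 183 in sgGFP tumours, and 5.67 and 5.24 in sgNrf2 against 6.47 and 406 in control tumours. The sgGFP tumours thus fell into a pair near 0 and a pair near 200, and control tumour B and sgGFP tumour 4, the same tumour, were both high. Its log2 fold changes were -2.62 in sgKeap1 (limma adjusted p = 0.30), -2.47 in sgCul3 (0.47) and -3.10 in sgNrf2 (0.32).

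Within groups, Gpx2 in sgCul3 was among the most variable genes: the SD of its log2 level over 3 tumours was 3.08, and 99.7% of tested genes had a smaller one, the median being 0.35. The SD of Cat in sgGFP tumours was 0.21, with 18.7% of genes below it.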
